A study of Mus musculus with 12 samples.

Results

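The Usp17-like genes form a small family of deubiquitinases, enzymes that cut ubiquitin from proteins. The 5 members described here, Usp17la, Usp17lb, Usp17lc, Usp17ld and Usp17le, were taken by symbol from a table of 55291 genes. They had been gathered as genes of the minor wave of zygotic genome activation, with Usp17lb picked out because it was much lower in Pan2-deleted embryos at L2C, the 2-cell stage. That contrast is therefore described here for every member without a test, and so is the stage difference of Usp17lb, and the stage differences of Usp17la and Usp17ld for a reason given with them.

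Poly(A) RNA of mouse embryos was sequenced by Smart-seq2 in 4 groups of 3 libraries. Embryos with a maternal deletion of Pan2, called KO in the labels, and wild-type embryos, called WT, were each profiled at L2C and at PN3, read here as the 2-cell embryos and zygotes that the series text names, although the extraction protocol speaks of oocytes in place of zygotes. The labels give no strain, age, deleted region or Cre driver, and they do not say whether the 3 libraries of a group came from separate animals or pools, so p-values measure the spread between these libraries, which may be technical. Pan2, the catalytic subunit of a deadenylase that shortens poly(A) tails, stood at 22.5 ± 10.4 CPM in KO L2C against 63.8 ± 4.72 CPM in WT L2C, and at 4.25 ± 2.55 CPM in KO PN3 against 173 ± 14.5 CPM in WT PN3 (SD, n = 3 each). CPM is the count of a gene per 1000000 counts of its library after scaling for composition.

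Usp17-like enzymes belong to the ubiquitin-specific proteases, the largest class of deubiquitinases. Mouse members were first described as Dub genes in blood cells, where cytokines induce their transcripts briefly: Dub1 (Usp17la) responds to interleukin 3 and Dub2 (Usp17lc) to interleukin 2. The other members carry the synonyms Dub1a (Usp17lb), Dub2a (Usp17ld) and Dub3 (Usp17le) in RefSeq. The human relatives act on cell cycle and signalling proteins such as the phosphatase CDC25A. In mouse the genes are also known from the 2-cell programme, the burst of transcripts made when the embryonic genome is first switched on, which the transcription factor Dux can set off in embryonic stem cells.

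All 5 genes lie on chromosome 7 of the mm10 build, over 1.613 Mb. Usp17ld (103249737 to 103252505, minus strand) and Usp17lc (103415072 to 103419880, plus strand) lie together. Usp17le (104768049 to 104777470, minus strand), Usp17lb (104840257 to 104842603, minus strand) and Usp17la (104857009 to 104862667, plus strand) lie together farther along. Usp17lc and Usp17ld were the closest pair, with coding sequences 98.4% identical over 1635 bases. Usp17la shared 90.6% with Usp17lc and 90.8% with Usp17ld. Identity was taken over all aligned columns, so gaps count as differences. By that measure Usp17lb, with the shortest coding sequence at 1404 bases, was 78.4% to 81.1% identical to the others. Of its 1404 bases, 1274 to 1285 matched each other member, so its low percentages partly reflect its length. Usp17le, with 1626 bases, matched Usp17la, Usp17lc and Usp17ld at 1423 to 1440 bases.

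The promoters are shown because the members were all more abundant at L2C than at PN3, so their shared letters can be set beside the values that follow. Each run holds 250 bases before and 50 bases after the RefSeq start on GRCm38.p6, 5′ to 3′ on the gene's own strand. Capitals mark TATAAA, the TATA box, and ATTGG or its reverse complement CCAAT, the core of the CCAAT box.
Usp17lb, chr7:104842534-104842833, minus strand: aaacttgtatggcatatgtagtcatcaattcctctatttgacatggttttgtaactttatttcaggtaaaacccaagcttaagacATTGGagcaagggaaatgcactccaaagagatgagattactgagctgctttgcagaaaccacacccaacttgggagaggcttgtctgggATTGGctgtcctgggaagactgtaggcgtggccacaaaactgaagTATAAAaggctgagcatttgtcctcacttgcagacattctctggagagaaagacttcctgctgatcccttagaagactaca
Usp17la, chr7:104856766-104857065, plus strand: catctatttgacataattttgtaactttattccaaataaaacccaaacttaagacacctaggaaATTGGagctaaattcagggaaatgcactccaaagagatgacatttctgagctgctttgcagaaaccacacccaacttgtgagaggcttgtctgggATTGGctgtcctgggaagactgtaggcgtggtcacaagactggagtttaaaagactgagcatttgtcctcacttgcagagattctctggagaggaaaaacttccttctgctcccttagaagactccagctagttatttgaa
Usp17lc, chr7:103416446-103416745, plus strand: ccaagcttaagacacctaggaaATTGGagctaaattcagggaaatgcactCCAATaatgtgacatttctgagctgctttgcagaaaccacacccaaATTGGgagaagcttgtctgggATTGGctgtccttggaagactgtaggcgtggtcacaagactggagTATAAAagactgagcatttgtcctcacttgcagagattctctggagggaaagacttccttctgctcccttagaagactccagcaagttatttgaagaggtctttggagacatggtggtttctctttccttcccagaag
Usp17ld, chr7:103252456-103252755, minus strand: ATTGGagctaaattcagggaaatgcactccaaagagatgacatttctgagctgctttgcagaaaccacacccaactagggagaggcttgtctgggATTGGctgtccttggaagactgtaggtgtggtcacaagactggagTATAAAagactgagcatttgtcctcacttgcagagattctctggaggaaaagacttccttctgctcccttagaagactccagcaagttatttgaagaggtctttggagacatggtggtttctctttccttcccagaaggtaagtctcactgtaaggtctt

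TATAAA was in 3 of the 4 promoters, beginning 31 bases before the start in Usp17lb, 88 in Usp17lc and 110 in Usp17ld, and in 13.6% of 32851 mouse promoters of the same length. The annotated start of Usp17ld is its first coding base, while in Usp17lc coding begins at base 23 of the transcript. The distances 88 and 110 are thus measured from different points of the gene and cannot be compared as they stand. Measured to the first coding base, TATAAA lies at the same distance in both genes. The Usp17la window held none on either strand. ATTGG, counted on both strands, was in 4 of 4 and in 37.4% of all promoters, and it was added to the search after the sequences had been seen. TAATCC, a core bound by homeodomain factors of the Obox and Crx type, was in 0 of 4 and in 7.06% of all. CACGTG, the E-box, was in 0 of 4 and in 7.15%. Aligned with end gaps left out, the Usp17lb window was 86.0% to 90.0% identical to the other 3, which were 94.96% to 96.8% identical to one another. Windows this alike are not independent, so a motif they share is not a separate find in each. Usp17le has no entry in the promoter table.

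Total counts per library ran between 14453592 and 28624766, and 3 counts, taken as the floor, equal 0.109 to 0.171 CPM. The rRNA gene CT010467.1 took 24.0% to 34.0% of the counts in L2C replicate 3 and 32.2% to 34.9% in PN3 replicate 2 of both genotypes, against 4.35% to 13.9% in the other 8 libraries. Markers of oocytes and early embryos were abundant in every group, with all 8 detected and a summed level of at least 4404 CPM. At L2C replicates 1 and 2 of a genotype were the most alike of all pairs (chi-square per degree of freedom 3.33 in WT and 3.59 in KO). The other L2C pairs had 65.8 to 178. Replicates 1 and 2 differed by more than the sampling noise of their counts and were kept as separate samples. Amplified repeats of 1 sample can exceed that noise too, so this does not show independence. With the 2 summed, 351 genes were called between the genotypes at L2C, against 3593 with them separate.

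Usp17lb was the most abundant member at L2C and was lower in KO there. It stood at 149, 157 and 45.1 CPM in KO L2C replicates 1, 2 and 3, against 651, 665 and 254 CPM in WT L2C. The highest KO library lay below the lowest WT library, and replicate 3 was the lowest of its group in both genotypes. The group means were 117 ± 62.6 CPM in KO and 523 ± 233 CPM in WT (SD, n = 3 each), and the fitted log2 fold change was -2.16. Among all tested genes 137 were more abundant than Usp17lb in WT L2C by mean CPM and 1007 in KO L2C, and 921 of 21160 had a lower log2 fold change. The 5 markers listed for the 2-cell stage summed to 212 to 645 CPM in KO L2C and 549 to 1026 CPM in WT L2C, with 1 of 5, Tcstv3, called lower in KO. The 8 markers of oocytes and early embryos summed to 5554 to 9573 CPM in KO L2C and 4404 to 6029 CPM in WT L2C, with Zar1 and Ooep called higher in KO, Zp3 called lower and a median log2 fold change of 0.75. Over all tested genes 7.24% were called higher and 9.74% lower in KO. The part of the listed markers in the Usp17lb value was not tested. In bulk RNA of embryos, fewer expressing cells and less RNA per cell cannot be told apart, and priming on poly(A) favours tailed RNA.

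The other 4 members differed between the genotypes at L2C by less than their libraries varied within a group. Usp17lc, the second most abundant, stood at 78.5, 86.7 and 61.5 CPM in KO L2C and 103, 108 and 63.3 CPM in WT L2C. Usp17la stood at 28.4, 21.5 and 12.1 CPM in KO and 23.0, 24.7 and 7.79 CPM in WT, and Usp17ld at 20.9, 22.0 and 6.71 CPM in KO and 22.0, 21.9 and 12.5 CPM in WT. Usp17le stood at 10.8, 15.1 and 6.41 CPM in KO and 14.5, 18.2 and 8.10 CPM in WT. For these 4 the KO and WT libraries overlapped, and the fitted log2 fold changes were -0.28 for Usp17lc, 0.16 for Usp17la, -0.19 for Usp17ld and -0.34 for Usp17le. Without overlap and lower in KO was thus 1 of 5 members, Usp17lb, beside 24.5% of all tested genes. The annotated pseudogene Usp17le-ps (104652252 to 104653208) had 1 count in KO L2C, 2 counts in WT L2C and 0 at PN3, and was not tested.

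**Figure D1:**
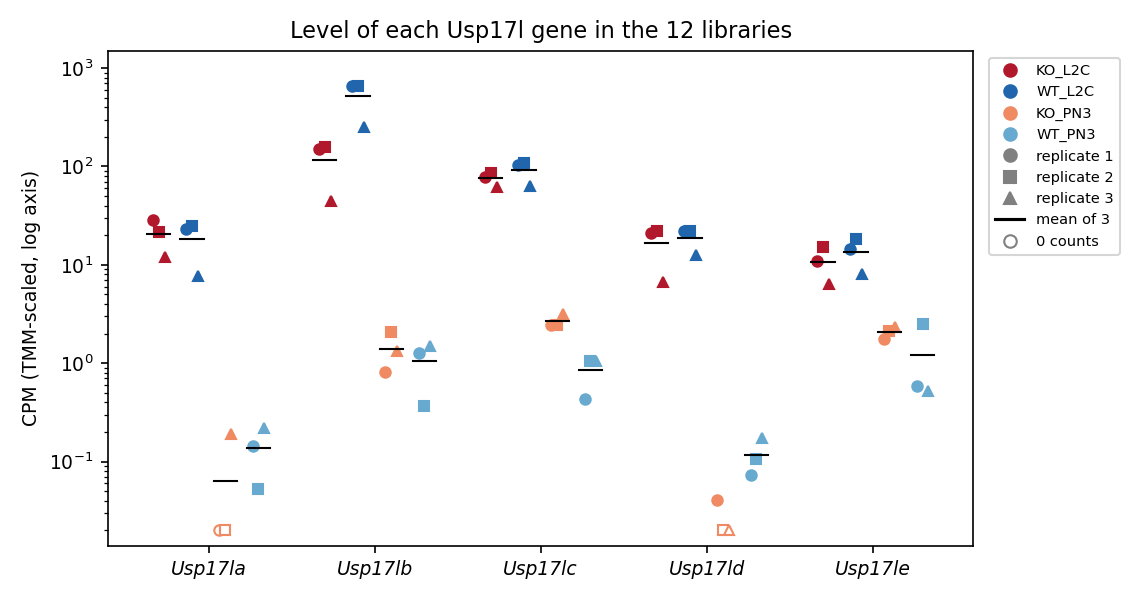
Level of each Usp17l gene in CPM on a log axis, with 1 point per library, shapes for replicate numbers and bars for the mean of 3. Usp17lb at L2C separates KO (45.1 to 157 CPM) from WT (254 to 665 CPM), while the L2C libraries of the other 4 genes overlap between genotypes. Open points at the bottom mark 0 counts.

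Libraries of the same replicate number are set against each other here as a description. Deviations of same-numbered libraries from their group means were correlated within each stage, but some differently numbered pairs were as close. KO replicate 1 at L2C gave 0.128 with WT replicate 1 and 0.140 with WT replicate 2. At PN3 it gave 0.165 with WT replicate 1 and 0.205 with WT replicate 3. The numbers thus do not establish which libraries belong together. For Usp17lb the KO level was 0.229, 0.236 and 0.177 of the WT level in replicates 1, 2 and 3. The ratio was thus low in each pair, the rRNA-rich replicate 3 included. For Usp17lc it was 0.762, 0.800 and 0.971, and for Usp17le 0.745, 0.828 and 0.791. Usp17la gave 1.23, 0.868 and 1.55, and Usp17ld 0.953, 1.0002 and 0.535.

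**Figure D2:**
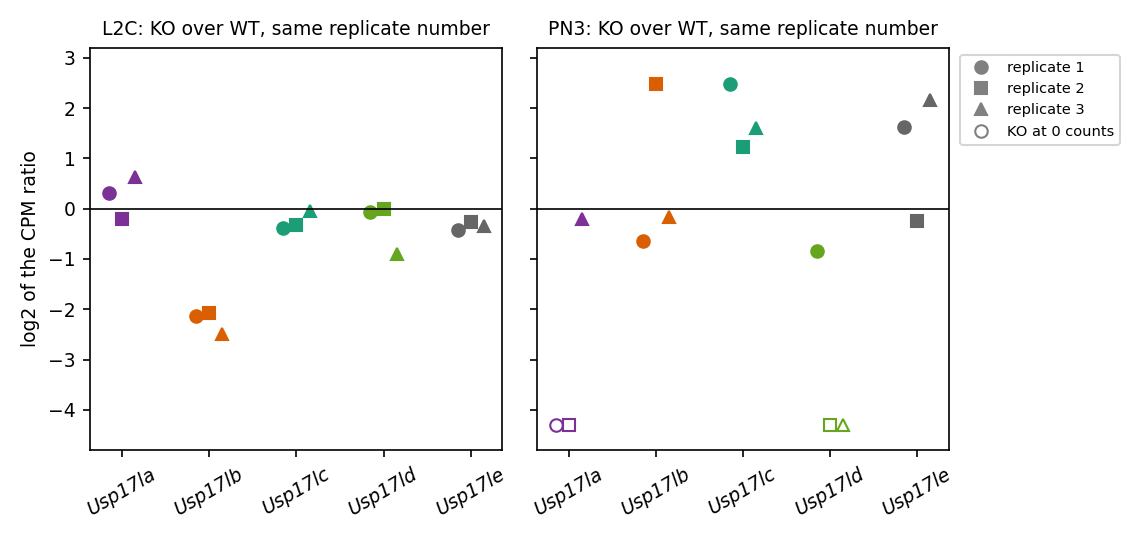
Log2 of the CPM ratio of KO over WT for same-numbered libraries, at L2C on the left and at PN3 on the right, with 1 point per pair. At L2C the 3 Usp17lb pairs (ratios 0.177 to 0.236) lie below all pairs of the other genes. At PN3 the 3 Usp17lc pairs (2.33 to 5.58) lie above 0, and open points mark pairs whose KO library had 0 counts.

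The share of Usp17lb among the family's counts follows from the level it was picked for, and is given as a description. Usp17lb gave 51.9%, 52.0% and 34.2% of all Usp17l counts in KO L2C, against 80.0%, 79.3% and 73.5% in WT L2C. The 5 genes together summed to 241 ± 94.7 CPM in KO L2C and 666 ± 277 CPM in WT L2C, while the 4 genes other than Usp17lb summed to 124 ± 32.1 CPM in KO and 143 ± 44.3 CPM in WT (SD, n = 3 each). Usp17lc took 27.3%, 28.7% and 46.7% in KO L2C and 12.7%, 12.9% and 18.3% in WT L2C, a larger share of a smaller sum.

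**Figure D3:**
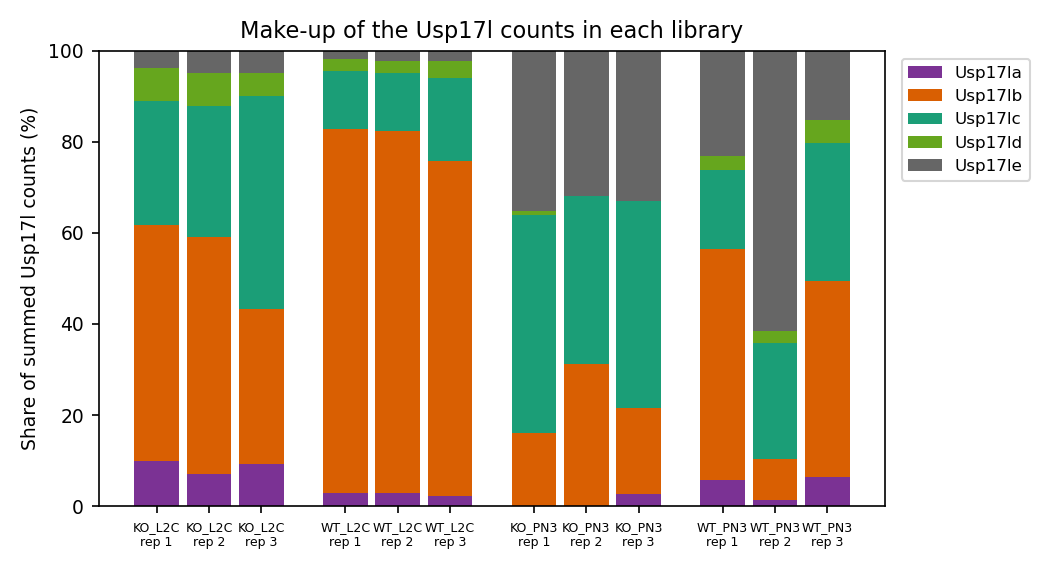
Share of the summed Usp17l counts that each gene took, in percent, with 1 bar per library. Usp17lb takes 34.2% to 52.0% in KO L2C and 73.5% to 80.0% in WT L2C. The PN3 bars rest on 69 to 148 counts per library.

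Per kilobase of the deposited gene length, which allows genes to be compared, Usp17lb led in WT L2C with 335 ± 149 CPM per kb, ahead of Usp17lc with 37.3 ± 10.03. Usp17ld (9.47 ± 2.74), Usp17la (6.97 ± 3.51) and Usp17le (6.85 ± 2.57 CPM per kb) followed, and their libraries overlapped. The same order of means held in KO L2C, with 75.1 ± 40.1 CPM per kb for Usp17lb, 30.8 ± 5.24 for Usp17lc, 8.32 ± 4.29 for Usp17ld, 7.77 ± 3.09 for Usp17la and 5.42 ± 2.18 for Usp17le (SD, n = 3). Here the libraries of Usp17lb and Usp17lc overlapped as well.

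Similar sequence limits how far reads can be told apart. Of all stretches of 151 bases, the read length, 97.5% to 97.8% of those in the Usp17lb transcripts matched no other GENCODE transcript, and 31 were shared with Usp17la. Usp17lc and Usp17ld shared 662 stretches, so 57.2% to 70.6% of those in Usp17lc and 64.0% of those in Usp17ld were unique. The treatment of reads with several matches is not stated in the labels or processing notes, which leaves the split between Usp17lc and Usp17ld uncertain. Their summed KO over WT ratios at L2C were 0.796, 0.834 and 0.899. Usp17lc also overlaps the miRNA gene Gm25774 on the same strand, which had 750 counts over the 12 libraries.

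All 5 genes were more abundant at L2C than at PN3 in both genotypes. Usp17lc and Usp17le, the members whose stage difference was open to a test, were called higher at L2C in KO and in WT, at an adjusted p under 0.05 in edgeR's quasi-likelihood test. Of all 21160 tested genes 33.5% were called higher in KO and 36.2% in WT. The family had been gathered as minor-wave genes, a class known for transcripts of 2-cell embryos, so this direction is not independent of how it was chosen. For Usp17lc and Usp17le the L2C and PN3 libraries did not overlap in either genotype, as for 36.8% of all tested genes in KO and 40.8% in WT.

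In KO, Usp17lc stood at 75.6 ± 12.9 CPM at L2C against 2.43, 2.47 and 3.19 CPM in the PN3 libraries (log2 fold change 4.81, SE 0.36, edgeR adjusted p = 5.9e-07). In WT it stood at 91.6 ± 24.6 CPM at L2C against 0.436, 1.06 and 1.05 CPM at PN3 (log2 fold change 6.77, SE 0.40, edgeR adjusted p = 6.41e-08). Usp17le had the smallest change of the family, with log2 fold changes of 2.37 in KO (SE 0.58, edgeR adjusted p = 0.00422) and 3.51 in WT (SE 0.62, edgeR adjusted p = 0.000312). The smallest L2C value of Usp17le, 6.41 CPM in KO, still lay above all its PN3 values. Usp17le was already detected in every PN3 library, at 1.78, 2.13 and 2.33 CPM in KO PN3 and 0.581, 2.54 and 0.524 CPM in WT PN3.

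Usp17la and Usp17ld were close to the floor at PN3 and were kept by the filter on low counts only through L2C, so they had to differ between the stages and no test is given. Usp17la had 0, 0 and 4 counts in KO PN3 and 4, 1 and 5 in WT PN3, and Usp17ld 1, 0 and 0 in KO and 2, 2 and 4 in WT. The L2C over PN3 ratio of Usp17la was 322 in KO (95% counting interval 126 to 1185) and 130 in WT (70.4 to 272). For Usp17ld it was 1030 in KO (184 to 40732, on 1 count at PN3) and 164 in WT (83.1 to 381). The fitted log2 fold changes were 8.22 in KO and 6.96 in WT for Usp17la, and 9.58 in KO and 7.27 in WT for Usp17ld. The intervals cover counting error only.

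Usp17lb had 20, 37 and 28 counts in KO PN3, or 0.810, 2.07 and 1.33 CPM, and 35, 7 and 34 counts in WT PN3, or 1.27, 0.370 and 1.48 CPM. Its level at L2C was 85.9 times that at PN3 in KO (95% counting interval 69.4 to 108) and 483 times in WT (386 to 613). The fitted log2 fold changes were 6.40 in KO and 8.94 in WT, given without a test. In WT 659 tested genes had a larger log2 fold change between the stages than Usp17lb, and in KO 2069 had.

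**Figure D4:**
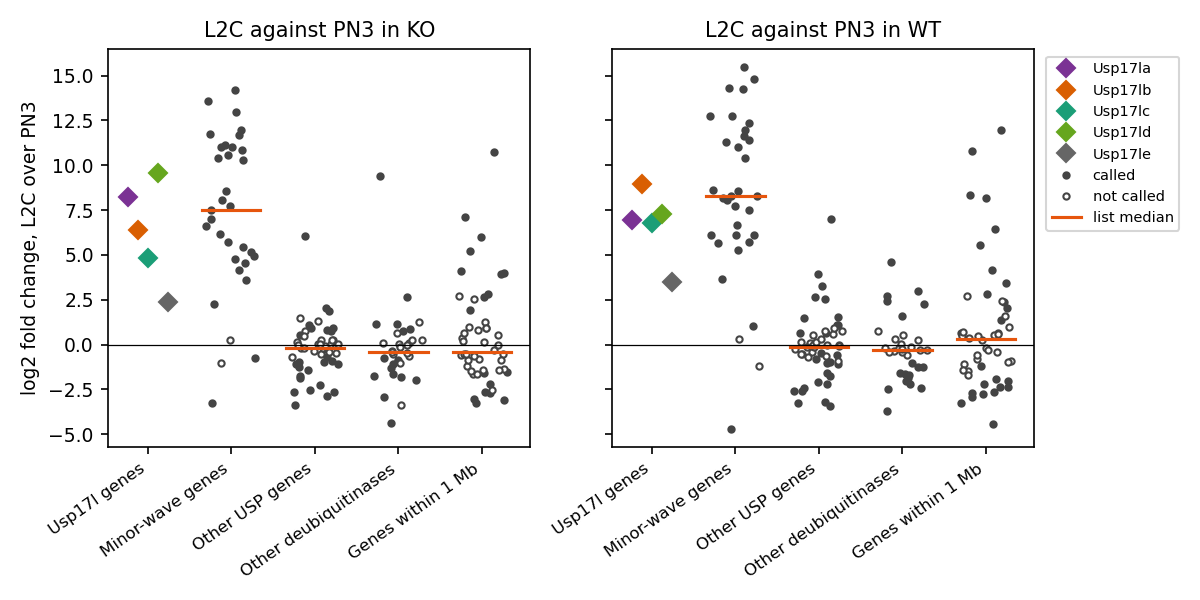
Log2 fold change of L2C over PN3 in KO (left) and in WT (right), with the Usp17l genes as diamonds and the genes of 4 lists as points, filled where called by edgeR and with a bar at the list median. The Usp17l values lie between 2.37 and 9.58 in KO and between 3.51 and 8.94 in WT, among the minor-wave genes, and the medians of the other lists lie between -0.41 and 0.31. Minor-wave genes near the floor at PN3 passed the filter on low counts only through L2C, so their filled points carry no test.

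Of the markers of other cells, those of blood, where the family was first described, rose with the stage. The 10 listed genes summed to between 65.8 and 78.2 CPM in KO L2C and 116 and 138 CPM in WT L2C, against 0.224 to 1.14 CPM in KO PN3 and 0.158 to 0.480 CPM in WT PN3. Of the 6 tested, 5 were called higher at L2C in each genotype, beside 33.5% of all tested genes in KO and 36.2% in WT. Most of the sum was the alpha-globin gene Hba-a1 (53.6 CPM in KO L2C and 71.0 CPM in WT L2C). The beta-globin genes Hbb-bs and Hbb-bt had 0 counts in KO L2C and 2 and 1 counts in WT L2C, the pan-leukocyte gene Ptprc had 6 counts in KO L2C and 29 in WT L2C, and the T-cell gene Cd3e had 0 in both. Other leukocyte genes were called higher at L2C in both genotypes: Cd74 stood at 7.15 CPM in KO L2C and 26.3 CPM in WT L2C, Lyz2 at 4.09 and Il2rg at 5.40 CPM in KO L2C, and Lyz2 at 22.9 and Il2rg at 2.17 CPM in WT L2C. Granulosa markers, led by Serpine2, summed to 68.3 to 77.7 CPM in KO L2C and 33.1 to 37.2 CPM in WT L2C, against 267 to 466 CPM in KO PN3 and 303 to 459 CPM in WT PN3. At L2C 2 to 3 of the 10, Fshr and Inha among them, were at 0. Foxl2, a transcription factor of granulosa cells, went the other way. It stood at 16.0 ± 8.63 CPM in KO L2C against 0.0747 CPM in KO PN3, and at 1.67 ± 0.37 CPM in WT L2C against 0.141 CPM in WT PN3. Foxl2 was near the floor at PN3 and passed the filter on low counts only through L2C, so no stage test is given. It was also higher in KO than in WT at L2C (log2 fold change 3.25, edgeR adjusted p = 0.0283), as was Serpine2 (0.76, edgeR adjusted p = 0.0431). Sperm markers stayed at or under 18.4 CPM in all libraries. The part of such cells in the Usp17l levels was not tested.

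The comparison of KO with WT zygotes, which the choice of members did not use, gave 0 calls among the 5 genes in edgeR, beside 0.132% of all tested genes. At an unadjusted p under 0.05 there were 2, Usp17lc and Usp17ld, beside 10.1% of all tested genes, and DESeq2 called 1, Usp17lc, beside 2.55% of all genes. Usp17lc had 60, 44 and 67 counts in KO PN3, or 2.43, 2.47 and 3.19 CPM, against 12, 20 and 24 counts in WT PN3, or 0.436, 1.06 and 1.05 CPM. Every KO library lay above every WT library, which was so for 5.9% of all tested genes. The log2 fold change was 1.69 (SE 0.35, edgeR adjusted p = 0.0952), and over the alternatives the adjusted p ran from 0.000769 to 0.428. With the replicate number as a block within each stage Usp17lc was called (log2 fold change 1.73, edgeR adjusted p = 0.0102), as were 2.67% of all genes, against 0.132% without the block. It was also called without the filter on low counts (edgeR adjusted p = 0.0202), beside 0.213% of all genes.

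Usp17lc was at or under 3.19 CPM in all PN3 libraries, so this difference rests on 171 counts in KO and 56 in WT, a ratio of 3.33 (95% counting interval 2.45 to 4.59). Usp17ld, its close copy, had 1 count in KO and 8 in WT (ratio 0.136, interval 0.00307 to 1.02; edgeR adjusted p = 0.475). Its KO libraries lay below its WT libraries, as did those of 6.96% of all tested genes. The summed CPM of the pair was 4.86, 2.12 and 2.60 times as high in KO as in WT PN3 in replicates 1, 2 and 3. Usp17le was not called (log2 fold change 0.80, SE 0.59, edgeR adjusted p = 0.727) and was called without the rRNA-rich libraries (log2 fold change 1.86, edgeR adjusted p = 0.00755), where 9.36% of all genes were called. PN3 replicate 2 was the WT library with the highest Usp17le level and the lowest Usp17lb level. For Usp17lb (log2 fold change 0.38, SE 0.61, edgeR adjusted p = 0.954) and Usp17la (-1.10, SE 1.09, edgeR adjusted p = 0.835) the libraries overlapped.

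At PN3 the 5 genes summed to 5.07, 6.67 and 7.04 CPM in KO and 2.51, 4.12 and 3.45 CPM in WT. The KO libraries all lay above the WT libraries, and the same-number ratios of 2.02, 1.62 and 2.04 compare with 0.354, 0.361 and 0.381 at L2C. Without Usp17lb the summed ratios at L2C were 0.853, 0.838 and 0.945, and those at PN3 were 3.44, 1.23 and 2.90. Whether the genotype difference changed between the stages was not tested, because the members were chosen on the L2C contrast.

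The other ubiquitin-specific proteases moved in both directions between the stages. Of 49 tested, 9 were called higher and 16 lower at L2C in KO, with a median log2 fold change of -0.17, and 11 higher and 17 lower in WT, with a median of -0.13. Over all tested genes 33.5% were higher and 20.1% lower in KO, with a median of 0.41, and 36.2% higher and 25.4% lower in WT, with a median of 0.38. Usp46, which deubiquitinates histones and glutamate receptors, fell to 186 ± 31.7 CPM in KO L2C, against 1146 ± 104 CPM in KO PN3 (log2 fold change -2.63, edgeR adjusted p = 5.96e-07). Usp50 rose to 66.4 ± 5.01 CPM in WT L2C, against 4.31 ± 0.99 CPM in WT PN3 (3.94, edgeR adjusted p = 5.67e-07). Of 33 deubiquitinases of other classes 6 rose and 11 fell in KO and 6 rose and 12 fell in WT, among them Otub1, an inhibitor of ubiquitin conjugation, at 41.5 ± 4.40 CPM in KO L2C against 310 ± 22.2 CPM in KO PN3.

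At L2C, KO against WT, 1 of the 49 other ubiquitin-specific proteases was called higher and 9 lower, beside 7.24% and 9.74% of all tested genes. Usp22, the deubiquitinase of the SAGA coactivator complex, stood at 14.7 ± 5.25 CPM in KO L2C against 92.4 ± 6.88 CPM in WT L2C (SD, n = 3 each; log2 fold change -2.65, SE 0.29, edgeR adjusted p = 0.000453). Usp46 was the gene called higher, at 186 ± 31.7 CPM in KO L2C against 73.6 ± 3.17 CPM in WT L2C (1.33, edgeR adjusted p = 0.00113). Usp33 stood at 28.3 CPM in KO and 60.7 CPM in WT, and Usp26, a testis-expressed gene, at 23.7 CPM in KO and 59.0 CPM in WT. Of the 33 deubiquitinases of other classes 1 was higher and 4 lower. Psmd14, the deubiquitinase of the proteasome lid, stood at 19.5 ± 4.91 CPM in KO and 90.7 ± 22.0 CPM in WT (-2.22, edgeR adjusted p = 0.00129).

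Proteins reported as partners of the human enzymes gave 9 tested genes. At L2C, KO against WT, 1 was higher and 1 lower, beside 7.24% and 9.74% of all tested genes. Snai1, a transcriptional repressor, stood at 35.7 ± 5.08 CPM in KO L2C against 125 ± 23.5 CPM in WT L2C (log2 fold change -1.80, edgeR adjusted p = 0.00105). Ddx58, the RNA sensor RIG-I, stood at 46.0 ± 17.6 CPM in KO L2C against 9.52 ± 5.25 CPM in WT L2C (2.27, edgeR adjusted p = 0.00965). Cdc25a fell between the stages, to 28.4 ± 7.91 CPM in KO L2C against 125 ± 77.7 CPM in KO PN3 (-2.14, edgeR adjusted p = 0.00333) and to 26.2 ± 11.4 CPM in WT L2C against 137 ± 85.1 CPM in WT PN3 (-2.39, edgeR adjusted p = 0.00136). Klf4, a pluripotency factor, rose in both. These are mRNA levels, and protein or ubiquitin was not measured.

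Most other minor-wave genes rose between the stages. The median log2 fold change of the 33 tested was 7.50 in KO and 8.27 in WT. The list was chosen as genes known for transcripts of 2-cell embryos. Members near the floor at PN3, such as Obox6, also passed the filter on low counts only through L2C. The rise thus follows from these choices, and no count of stage calls is given. Obox6, a homeobox gene, stood at 291 ± 156 CPM in KO L2C against 0.115 ± 0.10 CPM in KO PN3, and at 743 ± 308 CPM in WT L2C against 0.218 ± 0.13 CPM in WT PN3. Zfp750, a zinc finger gene, ran the other way, with 48.0 ± 13.7 CPM in KO L2C against 455 ± 85.04 CPM in KO PN3, and 14.9 ± 2.26 CPM in WT L2C against 384 ± 25.9 CPM in WT PN3. Between the genotypes at L2C, 1 of the 33 was higher in KO (Zfp750) and 2 were lower, Sp110 (195 CPM in KO and 396 CPM in WT) and Tcstv3 (109 CPM in KO and 263 CPM in WT). Over all tested genes 7.24% were higher and 9.74% lower in KO. The median log2 fold change of the 33 was -0.71, against 0.02 over all tested genes. The Usp17lb value of -2.16 lay below this median, and those of the other 4 Usp17l genes lay above it.

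Genes whose pattern over the 12 libraries was much like that of Usp17lb lay elsewhere in the genome. Likeness was the root-mean-square difference of log2 CPM after each gene's own mean was subtracted, over 10408 genes with at least 10 CPM in their highest group. Among the 6 closest were Spic, an Ets-family transcription factor (0.545), the predicted genes Gm48306 (0.551) and Gm18856 (0.571), Apol7b, an apolipoprotein L gene (0.571), and Rbm8a2, a copy of the RNA-binding protein gene Rbm8a (0.574). The median over the genes compared was 4.06. The other Usp17l genes were less close to Usp17lb, at 1.08 for Usp17ld, 1.19 for Usp17la, 1.41 for Usp17lc and 2.57 for Usp17le. Spic stood at 80.7 CPM in KO L2C and 283 CPM in WT L2C, and Gm18856 at 42.2 CPM in KO L2C and 125 CPM in WT L2C. Being picked for likeness to Usp17lb, such genes had to be lower in KO, and these levels only describe them. The summed family was closest to B020017C02Rik, Tdpoz6, Gm48383, Gria1, Slc25a41 and Gm47224, with differences of 0.351 to 0.420. All 12 libraries enter every value, so likeness also holds what the libraries share in depth and composition.

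**Figure D5:**
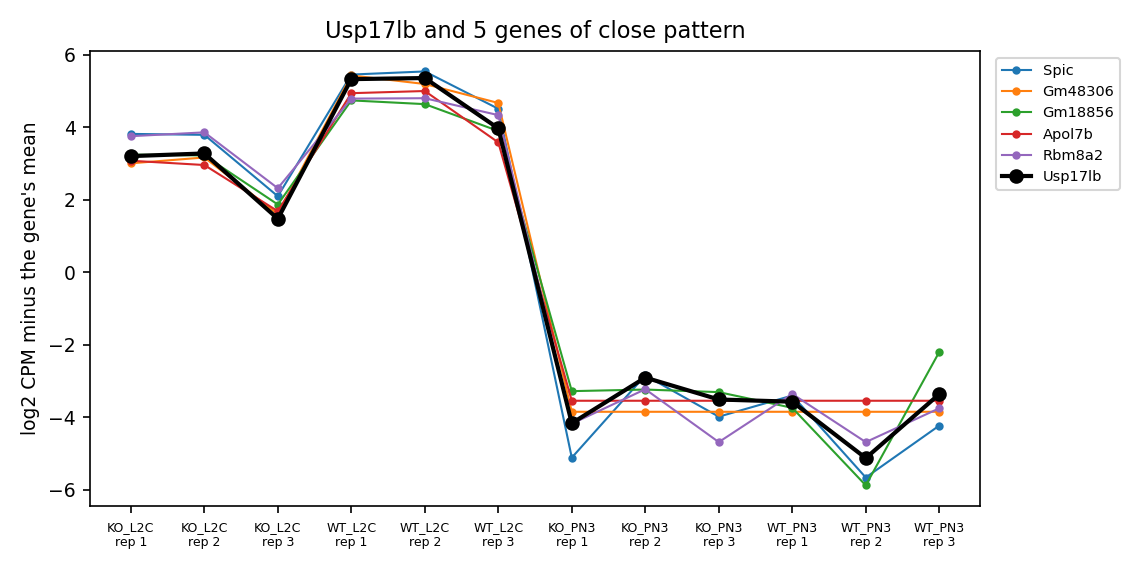
Log2 CPM of Usp17lb (black) and of 5 of its 6 closest genes, each minus its own mean over the 12 libraries, with libraries along the axis. All 6 lines are lower in KO L2C than in WT L2C in each replicate number, and lowest at PN3. The genes were picked for likeness to Usp17lb over these libraries, so this shared course restates the choice.

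Genes around the family moved in both directions. Within 1 Mb of a Usp17l gene the table held 257 other genes, 156 of them olfactory receptor genes, and 127 had no count in any library. Of the 48 tested, 11 rose and 8 fell between the stages in KO and 13 rose and 12 fell in WT. Over all tested genes 33.5% rose and 20.1% fell in KO, and 36.2% rose and 25.4% fell in WT. At L2C 2 of the 48 were higher and 6 lower in KO than in WT, beside 7.24% and 9.74% of all tested genes. By mean CPM over all 12 libraries the most abundant were Taf10, a subunit of TFIID and SAGA (121 CPM in KO L2C and 101 CPM in WT L2C), the predicted gene Gm45272, whose rank came from PN3 (62.7 CPM in KO PN3 and 87.0 CPM in WT PN3, with 13.7 CPM in KO L2C and 9.15 CPM in WT L2C), and Rrp8, a nucleolar protein (14.03 ± 1.88 CPM in KO L2C against 38.9 ± 8.77 CPM in WT L2C, edgeR adjusted p = 0.011).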

How the data were processed

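The labels group 12 Smart-seq2 libraries by genotype and stage. The deposited values are raw whole-number counts of reads per gene, per the file headers and the values, so the authors had not scaled them. The submitters' processing notes name STAR 2.7.10a, featureCounts 2.0.2, Trim Galore 0.6.7, DESeq2 and the mm10 build; how shared or antisense reads were counted is not stated there. Oligo(dT) priming, per the labels' protocols, favours tailed RNA, although an rRNA gene took counts in every library. No spike-in is named, so levels are relative within a library.

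Genes were kept by filterByExpr (21160 of 55291, with all 5 Usp17l genes), scaled by TMM and fitted with edgeR 4.0.16 (R 4.3.3) as 1 mean per group over all 12 libraries with a robust quasi-likelihood. P-values were adjusted by Benjamini-Hochberg over all tested genes, with calls at 0.05. The procedure was tested on simulated data with independent libraries. The altered genes had levels above those of the Usp17l genes at PN3, so such low levels were not covered. DESeq2 1.42.0 was an alternative. Log2 CPM used a prior count of 2. Counting intervals are exact, at 95%, and cover counting error only, since amplified reads are not independent molecules. Promoters are from RefSeq, and transcripts from GENCODE on the same build.

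The members and lists were chosen with earlier results of these data known. Named genes were the family, the 6 of closest pattern (1 gene close to Usp17lb is not reported here), per list up to 4 of lowest adjusted p, and the 3 most abundant neighbours. Same-numbered libraries correlated across genes in their deviations from group means, at 0.165, 0.455 and 0.274 at PN3 and 0.128, 0.15 and 0.221 at L2C, so a block within stages was run. This pairing rests on the counts, since the labels give only the numbers, and replicates 1 and 2 at L2C (0.132 and 0.14) and 1 and 3 at PN3 (0.205 and 0.211) correlated as much across numbers.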

Additional observations from a re-analysis of the deposited data

Results flagged for a closer look

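Usp17lc went opposite ways in the genotype comparison of the 2 stages, in all 3 same-numbered pairs each. The lowest KO over WT ratio at PN3 was 2.33 and the highest at L2C was 0.971. The sum of the 5 genes did the same, with a lowest ratio of 1.62 at PN3 and a highest ratio of 0.381 at L2C. The L2C side of that sum restates how the members were chosen, since Usp17lb made up 73.5% to 80.0% of the counts in WT L2C. Without Usp17lb the summed ratios at L2C were 0.853, 0.838 and 0.945. The difference between the stages was not tested, because the members were chosen on the L2C contrast. The PN3 ratios rest on 12 to 67 Usp17lc counts per library. At L2C the KO and WT libraries of Usp17lc overlapped (log2 fold change -0.28), and the pairs rest on replicate numbers only. The split of reads between Usp17lc and Usp17ld is uncertain, and Usp17ld at PN3 had 1 count in KO against 8 in WT. For the summed CPM of that pair the lowest ratio at PN3 was 2.12 and the highest at L2C was 0.899.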

How the results depend on the processing

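The stage calls of Usp17lc and Usp17le were made in KO and in WT under all 23 alternatives (other scalings, filters, prior counts, DESeq2, a replicate block within stages, close L2C pairs summed, and libraries left out). Usp17la and Usp17ld passed the filter on low counts only through L2C, so their stage difference is left out of this statement. At PN3, KO against WT, the number of Usp17l genes called was 0 and became 1 without the filter on low counts, 1 by DESeq2, 1 with the replicate block and 2 without the rRNA-rich libraries, and it was 0 to 0 with each library left out. The gene called was Usp17lc each time (adjusted p = 0.0202, 0.000769, 0.0102 and 0.00213), joined by Usp17le without the rRNA-rich libraries. That last fit keeps at L2C only the close replicates 1 and 2, and the cause was not tested. The Usp17lb log2 fold change at PN3, 0.38, reversed to -0.067 without WT_PN3 replicate 2, to -0.042 without KO_PN3 replicate 2 (-0.067 to 0.67 with each library left out) and to -0.39 without the rRNA-rich libraries. At L2C, where no test was made, the KO over WT log2 fold change of Usp17lb ran from -2.44 to -1.77 over the alternatives and those of Usp17lc and Usp17le stayed below 0 (-0.43 to -0.06 and -0.60 to -0.05). Usp17la (-0.16 to 0.45) and Usp17ld (-0.40 to 0.19) took either sign. The replicate block changed no other call among the members.

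Over all genes at PN3, 28 were called, 1 to 55 with a library left out and 0 to 2029 under the other alternatives. At L2C 3593 were called, 1427 to 4423 with a library left out and 351 to 9797 otherwise. The 351 came with L2C replicates 1 and 2 of each genotype summed, so the L2C adjusted p-values above rest on counting those as separate. Upper quartile scaling, which moved the median there to 0.23, gave 2307 higher and 1496 lower in KO, against 1531 and 2062 with TMM. Depth limits Usp17la and Usp17ld at PN3, with at most 5 counts per library.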
